A study of Mus musculus with 12 samples.

Results

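Solute carriers are membrane proteins that move nutrients, ions, metals, vitamins and metabolites across the cell surface and the membranes of organelles. The members described here are the genes of the deposited count table whose symbol has the form Slc, a family number, the letter a and a further number, such as Slc1a5. Of 350 such rows, 6 (Slc40a1, Slc48a1, Slc11a1, Slc7a11, Slc2a1 and Slc2a5) were left out by name, which leaves 344 members of 54532 genes listed. The rule itself uses the symbol alone and no measured level. The pattern also takes in 12 rows that are not transporters, such as antisense transcripts, pseudogenes and the scaffold protein gene Slc9a3r1, and it does not take in carriers with other name forms, such as Slco2b1.

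The libraries were made from macrophages sorted from the gliomas of 6 mice of the genotype labelled Ntv-a_Ink4a/Arf_KO, 4 male and 2 female (mice 5 and 6). In lines named Ntv-a the receptor for avian retroviruses is driven by the promoter of Nestin, a neural progenitor gene, and both groups share this background and the knockout. Each mouse received rhodamine-labelled perfluoro-crown-ether (PFCE) nanoparticles intravenously, and tumours were taken 24 hours later. Cells of each tumour that were CD45+, CD11b+ and Ly6C- were sorted into a rhodamine-positive group, which had taken up nanoparticles, and a rhodamine-negative group, which had not, with more than 2000 cells per sort. The question was how the expression profile differed between the 2 sorts of the same mouse. All 12 libraries, 6 per group, come from injected mice, so the negative sort was exposed to the nanoparticles too. The ages of the mice and the way the tumours were induced are not given in the sources used here.

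Transporters of this group work in several ways. Some let a solute run down its gradient, others couple it to sodium, protons or another solute, and the large mitochondrial family exchanges metabolites across the inner mitochondrial membrane. In macrophages they supply amino acids, sugars and nucleosides, export lactate, move zinc, iron and copper, and return the products of digestion from the lysosome to the cytosol.

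Polyadenylated RNA was sequenced to 13421387 to 16167832 counts per rhodamine-negative library and 13073189 to 17379314 per rhodamine-positive library. The 7 macrophage markers summed to 4265 to 7421 CPM (read counts scaled to a common library total) in negative and 7567 to 8809.7 CPM in positive libraries, and 3 rose and 1 fell. The fall was in Ptprc. Of the 3 that rose, Csf1r did not pass without any one of mice 1, 3, 4 and 6 (adjusted p = 0.0733 to 0.111, edgeR's quasi-likelihood test). Among markers of other leukocytes that could be tested, 8 of 8 for dendritic cells, 3 of 6 for monocytes, 3 of 3 for basophils and mast cells, 3 of 5 for B and plasma cells and 1 of 1 for T and NK cells fell, and none of these rose. Over all genes tested, 13.2% fell and 13.0% rose. Only 3 of 6 basophil and mast cell markers and 1 of 6 T and NK cell markers could be tested. The 6 of each list summed to 0.187 to 21.2 and 2.54 to 10.2 CPM in positive libraries. Markers so low there entered the test mainly through the negative group, so their direction was largely fixed in advance. Of 2 neutrophil markers 1 rose and 1 fell, and none of the 4 endothelial and 2 erythroid markers passed. The neutrophil marker that rose, Mmp8, did not pass without any one of mice 1, 2, 3, 4 and 5 (adjusted p = 0.0507 to 0.100, same test). The summed level of the dendritic cell markers ranged from 448 to 1589.7 CPM in negative and 152 to 274 CPM in positive libraries. The negative library of mouse 5 stood apart. It had the highest summed dendritic markers, 1589.7 CPM, the highest basophil and mast cell markers, 413 CPM against 5.98 to 259.6 CPM in the other negative libraries, and the lowest macrophage markers, 4265 against 5599.6 to 7421 CPM. In sorted bulk samples, fewer cells of a type and less RNA per cell cannot be told apart, and the part these other cells play in the results below was not tested.

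Carriers moved in both directions, and about as often as other genes. Of the 344 members, 332 had at least 1 count, 195 passed the filter on low counts and 149 did not, none of these with more than 260 counts over all libraries. Of the 195 tested, 33 rose and 25 fell in rhodamine-positive sorts, or 29.7% (adjusted p under 0.05, edgeR's quasi-likelihood test with the mouse as a block). The same share over all 15014 genes tested was 26.2%, with 13.0% higher and 13.2% lower, against 16.9% and 12.8% of the members. The median log2 fold change (rhodamine-positive minus rhodamine-negative) was 0.02 for the members and -0.02 for all genes. Falls were larger than rises among members as among all genes. Of the 195 members, 12 fell and 2 rose at least 2-fold and passed. Of all 15014 genes, 821 (5.47%) fell and 94 (0.626%) rose by as much and passed. The change had the same sign in all 6 mice for 42 of the 58 members called, and 15 of the 58 had no overlap between the groups. These are 72.4% and 25.9% of the members called, below the 82.6% and 32.6% of all 3941 genes called. Counted over all genes tested, 21.7% were called with the same sign in every mouse and 8.55% without overlap. Scaled to library size alone, 14 members rose and 40 fell, so that 25.9% of the calls were rises in place of 56.9%. That scaling moved the median of all genes to -0.18, and no called member changed sign under it. Of the 25 members that fell, 18 had their highest negative level in mouse 5 (72.0%, against 59.2% of all genes called lower). Without mouse 5, 28 members rose and 17 fell. Leaving out each mouse in turn gave 22 to 28 rises and 16 to 23 falls, with the fewest falls without mouse 3 and the fewest rises without mouse 1. Ignoring the pairing of the sorts, that is without the mouse as a block, 17 rose and 14 fell. No called member changed sign in any of these fits. Of the 33 rises, 17 passed whichever mouse was left out, as did 13 of the 25 falls. Among these 13 are Slc14a1 and Slc4a11, which entered the test through their negative libraries. Where a member named below lost its call without a mouse, this is given beside it.

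**Figure D1:**
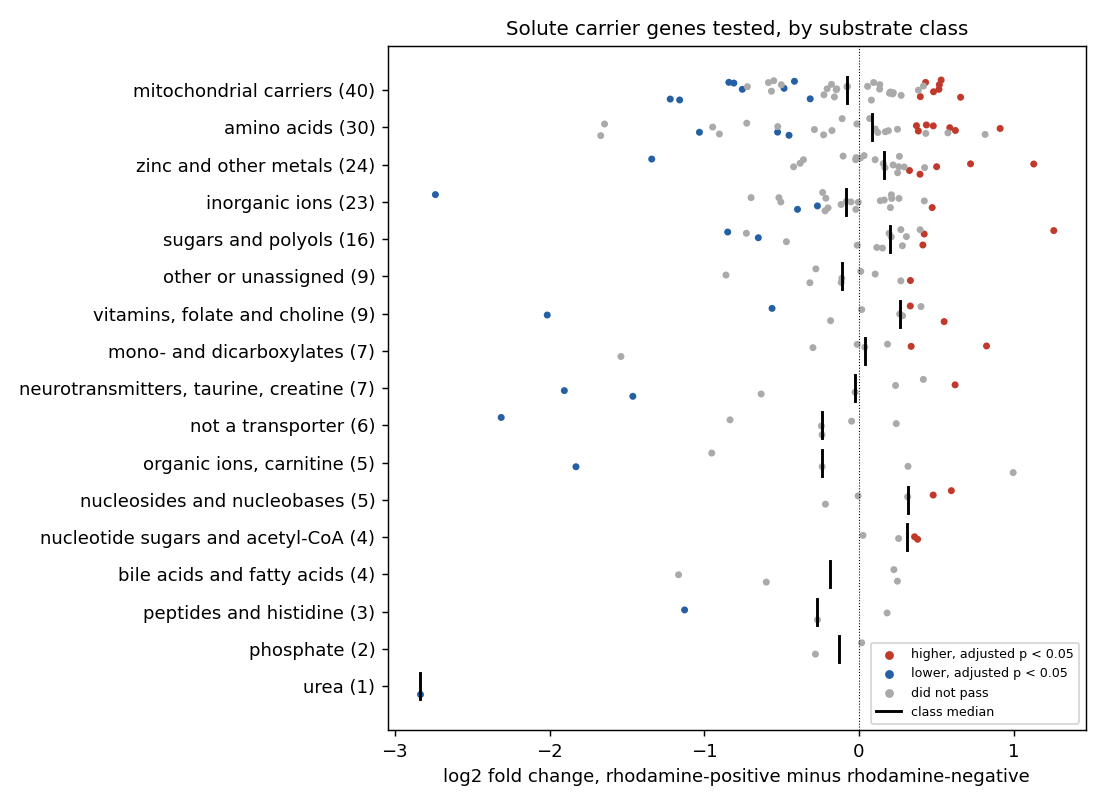
Log2 fold change (x axis) of the 195 solute carrier genes tested, one point per gene, by substrate class with the number of genes tested in brackets. Red and blue points passed the test as higher or lower, grey points did not, and black bars mark class medians, which lie between -0.24 and 0.26 in the classes with more than 5 genes while single genes reach -2.84 (Slc14a1, the one gene of the urea class).

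The 195 genes fell into 17 classes by substrate, of which 1 holds genes with no assigned substrate and 1 those that are not transporters. Mitochondrial carriers were the largest, with 40 tested, followed by amino acid carriers with 30, zinc and other metals with 24, inorganic ions with 23, and sugars and polyols with 16. Levels between genes were compared as CPM per kilobase of exon. Slc25a5, an ADP/ATP translocase of the inner mitochondrial membrane, was by far the most abundant member, at 695 CPM per kilobase averaged over the 12 libraries. Next came Slc3a2, the heavy chain shared by several amino acid exchangers, at 127, then the mitochondrial carriers Slc25a4 and Slc25a11 at 85.7 each. The amino acid exchanger chains Slc7a8 and Slc7a7 followed at 73.7 and 52.4 CPM per kilobase, with the phosphate carrier Slc25a3 at 71.8 and Slc25a39 at 68.0 in between. Slc9a3r1, the scaffold protein gene, and the hexose transporter gene Slc2a6 closed the 10 most abundant, at 47.5 and 44.9.

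Promoter sequence was compared between members that rose, fell or did not pass. RefSeq promoters (build GRCm38.p6) were matched by symbol for 261 of the 344 members, and the 250 bases before each gene start were searched on both strands. The letters CACGTG, an E-box core that reads the same on both strands and is bound by several basic helix-loop-helix factors, occurred in 8 of 26 members that rose, 1 of 19 that fell and 15 of 101 that did not pass. A gene counted where any window of its starts held the motif, and some members have several starts. By window the counts were 8 of 39, 1 of 23 and 16 of 131 (20.5%, 4.35% and 12.2%). Over all promoters of the table, 6.86% of genes and 6.02% of windows held this E-box core. Outside the members, it was present in 12.4% of genes that rose, 8.99% of those that fell and 9.33% of those that did not pass. The AP-1 letters TGANTCA occurred in 2 of 26, 0 of 19 and 10 of 101 of the same member groups and in 7.82% of all genes. TGACNNNGC, the core of the antioxidant response element, was in 4, 5 and 20 of them and in 11.5% of all genes. TGCNCNC, a looser form of the metal response element core, was in 14, 8 and 53 and in 47.2%. Matches of different motifs may overlap. The 4 motifs were chosen with the changes of the genes known, a match is not a measured binding site, and these counts were not tested. The windows below are the 3 members with this E-box that rose most, Slc16a1, Slc39a8 and Slc38a7, and the 1 that fell, Slc25a33. Each is given 5′ to 3′ on the gene's strand in lower case, with the E-box in capitals. They lie at chr3:104638414-104638663 (plus strand), chr3:135825407-135825656 (plus), chr8:95853492-95853741 (minus) and chr4:149774268-149774517 (minus).
Slc16a1: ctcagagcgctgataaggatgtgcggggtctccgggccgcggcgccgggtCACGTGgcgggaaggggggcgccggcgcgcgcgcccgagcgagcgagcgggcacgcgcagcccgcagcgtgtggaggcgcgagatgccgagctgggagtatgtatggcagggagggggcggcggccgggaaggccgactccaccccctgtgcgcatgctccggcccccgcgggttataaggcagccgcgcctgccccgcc
Slc39a8: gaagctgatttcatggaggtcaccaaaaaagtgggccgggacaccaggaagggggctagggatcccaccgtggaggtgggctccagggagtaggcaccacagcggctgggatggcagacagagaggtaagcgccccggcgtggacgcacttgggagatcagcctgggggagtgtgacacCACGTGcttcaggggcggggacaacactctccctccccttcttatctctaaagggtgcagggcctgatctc
Slc38a7: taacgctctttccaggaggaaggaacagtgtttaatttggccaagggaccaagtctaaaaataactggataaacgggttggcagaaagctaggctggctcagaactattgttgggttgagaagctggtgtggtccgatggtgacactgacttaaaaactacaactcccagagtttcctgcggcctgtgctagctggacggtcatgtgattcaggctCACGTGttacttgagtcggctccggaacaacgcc
Slc25a33: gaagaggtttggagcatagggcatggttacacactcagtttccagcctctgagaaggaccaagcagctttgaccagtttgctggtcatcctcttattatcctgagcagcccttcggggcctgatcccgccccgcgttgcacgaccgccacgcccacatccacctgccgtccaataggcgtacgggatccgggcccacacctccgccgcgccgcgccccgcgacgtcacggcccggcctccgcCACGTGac
The E-box began 200 bases before the gene start in Slc16a1, 71 in Slc39a8, 34 in Slc38a7 and 8 in Slc25a33. Slc39a8 has a further start in the table, whose window held none.

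Among amino acid carriers, 7 of 30 rose and 3 fell (33.3%, against 26.2% of all genes), with a median of 0.09. With library size alone 3 rose and 6 fell. The strongest fall was in Slc1a5, a sodium-dependent exchanger that brings glutamine and other neutral amino acids into the cell. Slc1a5 had 42.8 to 104 CPM in the 6 negative libraries, with a median of 57.2, and 23.4 to 41.9 CPM, median 27.3, in the positive ones. The groups did not overlap, and both sorts of mouse 5 were the highest of their group. The log2 fold change was -1.03 ± 0.10 (SE, n = 6 pairs), or 2.04-fold lower, with adjusted p = 5.68e-05. Without mouse 5 it was -0.97. Slc38a2, a sodium-coupled carrier of small neutral amino acids, fell in all 6 mice from 172 ± 48.8 to 116 ± 12.5 CPM (SD, n = 6; adjusted p = 0.00288). Here the groups overlapped, since the negative library of mouse 3 (128 CPM) lay below the highest positive library (135 CPM).

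The amino acid carriers that rose include some of the cell surface and 1 of the lysosome. Slc38a7, which exports glutamine and asparagine from the lysosome, had 42.1 to 61.3 CPM (median 52.3) in negative and 60.6 to 95.4 CPM (median 81.6) in positive sorts. It was higher in every mouse, and the ranges met only where the positive library of mouse 4 lay just below the highest negative one. Its log2 fold change was 0.59 ± 0.09 (adjusted p = 0.000859). Slc36a4, a carrier of proline and tryptophan, had 25.3 to 35.4 CPM in negative and 35.9 to 55.8 CPM in positive libraries with no overlap, and rose 1.54-fold (adjusted p = 0.00284). Slc7a8, the light chain of an exchanger of large neutral amino acids, rose from 310.0 ± 53.8 to 428 ± 29.6 CPM (SD, n = 6; adjusted p = 0.00655). Its partner Slc3a2, the heavy chain, stood at 438 ± 61.7 and 456 ± 33.6 CPM and did not pass (adjusted p = 0.651), with an estimate of 0.07 that was -0.09 with library size alone. Slc43a2, another carrier of large neutral amino acids, and Slc16a10, which carries aromatic amino acids, rose 1.30-fold and 1.35-fold with no overlap between the groups. Slc38a10 rose 1.29-fold and did not pass without mouse 3 (adjusted p = 0.0558). Slc7a4 rose 1.88-fold from a low level (3.59 CPM). It shares exon sequence with P2rx6 on the other strand, and it did not pass without any one of mice 1, 4, 5 and 6 (adjusted p = 0.0549 to 0.127).

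The arginine sensor of the lysosome, Slc38a9, went the other way from Slc38a7. It had 39.3 to 56.4 CPM in negative and 27.6 to 42.7 CPM in positive libraries. The groups overlapped, and mouse 2 was the 1 mouse in which it was higher. The log2 fold change was -0.45 ± 0.13 (adjusted p = 0.0235). It did not pass without any one of mice 3, 4 and 5 (adjusted p = 0.0562 to 0.0764). Slc38a9 works with the Ragulator and Rag proteins, which recruit the growth kinase complex mTORC1 to the lysosome. Of 24 tested genes of that sensing machinery, 6 rose and 3 fell, or 37.5% against 26.2% of all genes, with a median of -0.04. All 5 Ragulator genes, Lamtor1 to Lamtor5, were among those that rose, by 0.30 (Lamtor3) to 0.50 (Lamtor4) on the log2 scale. Lamtor3 did not pass without any one of mice 2, 3 and 6 (adjusted p = 0.0573 to 0.0792), nor Lamtor4 without mouse 6 (adjusted p = 0.0509), nor Lamtor5 without any one of mice 2, 3, 5 and 6 (adjusted p = 0.0622 to 0.0875). The related genes Sesn2 and Sesn3 and the activator Rheb were the 3 that fell, with log2 fold changes of -0.61, -1.29 and -0.35. Over the 9 members of lysosomal membranes, 1 rose (Slc38a7), 1 fell (Slc38a9) and 7 did not pass (22.2% called, against 26.2% of all genes). Slc29a3, a lysosomal nucleoside exporter, stood at 245 ± 49.3 and 240.2 ± 18.2 CPM, and Slc15a3, which exports peptides and histidine, at 178 ± 31.2 and 202 ± 38.1 CPM (SD, n = 6).

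Slc1a5 and Slc38a2 belong to a set of 8 members that are known targets of ATF4, the transcription factor of the amino acid starvation response. They were the 2 of that set that passed, both lower, with a median of -0.58. That is 25% of the set, close to the 26.2% of all genes. At an unadjusted p under 0.05, 3 were lower and 0 higher, and DESeq2 called 2 lower and 0 higher. Slc7a5, the light chain of the main exchanger of large neutral amino acids, had 37.0 ± 33.3 and 18.3 ± 4.80 CPM and did not pass (adjusted p = 0.0815). Of 20 tested genes of the ATF4 response outside the carriers, 4 rose and 3 fell (35%), with a median of 0.01. The serine synthesis enzymes Phgdh and Psat1 rose 2.03-fold and 1.92-fold, and the mitochondrial serine enzyme Shmt2 and the tryptophan tRNA ligase Wars 1.46-fold and 1.32-fold. Atf4 itself fell, with a log2 fold change of -0.36 ± 0.11, as did Sesn2 and Ddit4 (-1.98). Atf4 did not pass without any one of mice 1, 3, 4 and 6 (adjusted p = 0.0607 to 0.0871). Of 17 enzymes of arginine and glutamine metabolism, 4 rose (Got2, Arg1, Gpt2 and Arg2) and 2 fell (35.3%), among them the citrulline-using Ass1 (-0.97). Arg2 did not pass without any one of mice 1, 2, 3, 5 and 6 (adjusted p = 0.0519 to 0.124).

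**Figure D2:**
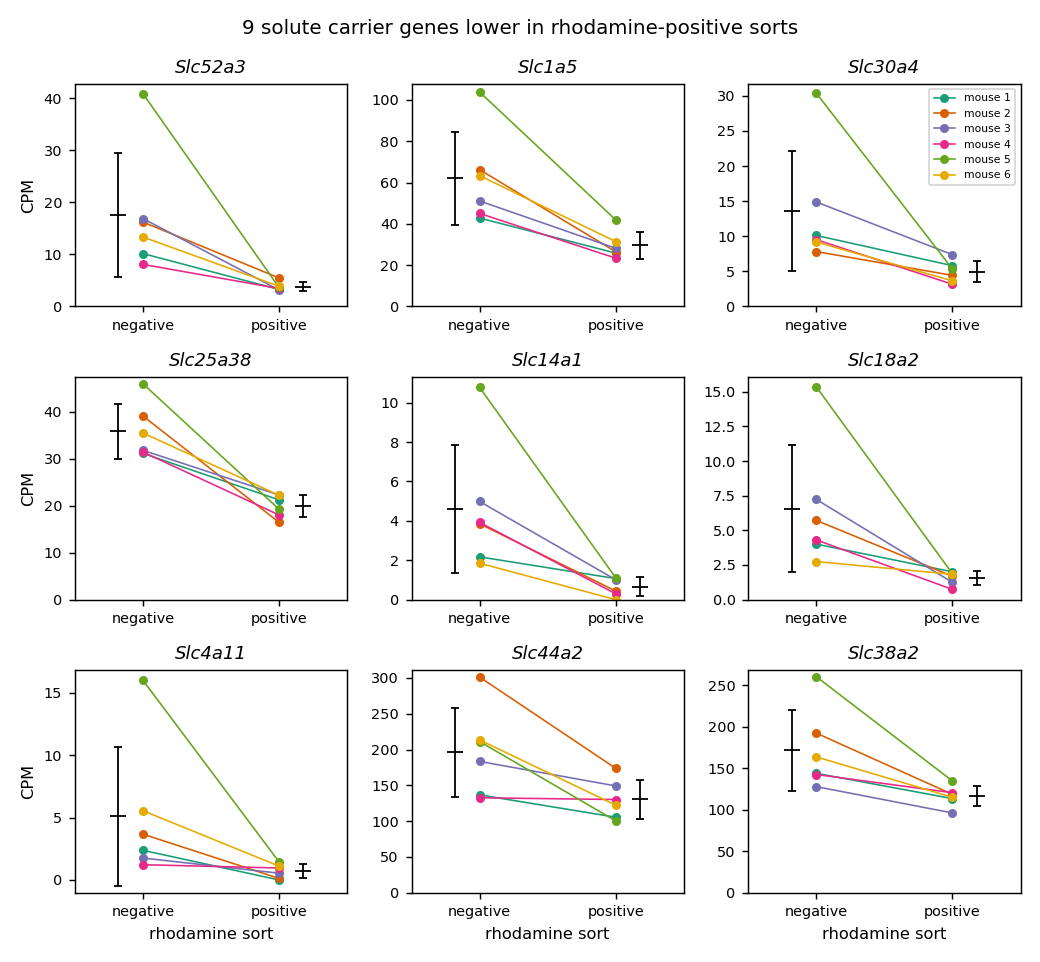
CPM (y axis) of 9 solute carrier genes in the rhodamine-negative and rhodamine-positive sort of each mouse, joined by a line, with black bars for the mean ± SD of 6 libraries beside them. All lines run downward, and in 8 of the 9 panels mouse 5 has the highest negative value, as in Slc52a3 at 40.9 CPM; a lower SD bar below 0, as in Slc4a11, reflects the spread only.

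Of 40 mitochondrial carriers, 7 rose and 8 fell (37.5%, against 26.2% of all genes), with a median of -0.08. With library size alone 4 rose and 12 fell. Those that rose included abundant carriers of energy metabolism. Slc25a5 rose from 996 ± 197 to 1291 ± 95.2 CPM (SD, n = 6; adjusted p = 0.0174), in all 6 mice but with overlap, and did not pass without mouse 6 (adjusted p = 0.0521). Its close relative Slc25a4, also an ADP/ATP translocase, had 108 to 202 CPM in negative and 224 to 262 CPM in positive libraries without overlap (log2 fold change 0.52 ± 0.10, adjusted p = 0.00393). Reads shared between these near-identical genes, or with the pseudogene Slc25a5-ps, cannot be assigned with certainty. Slc25a39, which imports glutathione into the mitochondrion, had 126 to 173 CPM (median 155) in negative and 188 to 258 CPM (median 224) in positive libraries. The groups were apart, and it rose 1.45-fold (adjusted p = 0.00105). The dicarboxylate carrier Slc25a10 also rose without overlap, from 49.7 ± 7.77 to 78.6 ± 13.9 CPM, or 1.58-fold (adjusted p = 0.00109). The citrate carrier Slc25a1 rose 1.35-fold (adjusted p = 0.004). The ornithine carrier Slc25a15 and Slc25a35 had log2 fold changes of 0.52 and 0.48. Slc25a15 did not pass without any one of mice 1, 2, 4 and 5 (adjusted p = 0.0512 to 0.0649), nor Slc25a35 without any one of mice 1, 2, 4, 5 and 6 (adjusted p = 0.057 to 0.113). The phosphate carrier Slc25a3 and the oxoglutarate carrier Slc25a11 had folds of 1.15 and 1.06 and did not pass (adjusted p = 0.103 and 0.448). The estimate for Slc25a11, 0.08, was -0.08 with library size alone.

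The mitochondrial carriers that fell included those for glycine, nucleotides and iron. Slc25a38, which brings glycine into the mitochondrion for heme synthesis, had 31.1 to 46.0 CPM (median 33.6) in negative and 16.5 to 22.3 CPM (median 20.3) in positive libraries. No positive library reached the lowest negative one, and the level was 1.79-fold lower (adjusted p = 0.000799). Slc25a33, a pyrimidine nucleotide carrier, was lower in every mouse, at 9.12 ± 4.09 against 4.10 ± 2.55 CPM. Its log2 fold change was -1.22 ± 0.26 (adjusted p = 0.00601), and the groups overlapped. Slc25a25 and Slc25a24, which exchange ATP-magnesium for phosphate, had log2 fold changes of -0.48 and -1.16. Slc25a24 was highest in the negative library of mouse 5, at 20.7 CPM, and did not pass without any one of mice 2, 5 and 6 (adjusted p = 0.0806 to 0.107). The mitochondrial iron carrier Slc25a28 and the acylcarnitine carrier Slc25a20 had log2 fold changes of -0.75 and -0.32. Slc25a28 did not pass without any one of mice 1, 4, 5 and 6 (adjusted p = 0.0739 to 0.0868), nor Slc25a20 without any one of mice 1, 3, 4, 5 and 6 (adjusted p = 0.0584 to 0.115). Slc25a45 and Slc25a53 had -0.42 and -0.81 on the log2 scale. Slc25a45 did not pass without any one of mice 1, 2, 3, 4 and 6 (adjusted p = 0.0557 to 0.0816), nor Slc25a53 without any one of mice 1, 2, 3, 4 and 6 (adjusted p = 0.0836 to 0.146). Exons of Slc25a25 overlap Naif1 and those of Slc25a35 overlap Rangrf, both on the other strand.

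Metal carriers showed 5 rises and 1 fall among 24 tested (25%, against 26.2% of all genes), with a median of 0.16. With library size alone 3 rose and 3 fell. Slc39a8, which imports zinc and manganese, had 19.1 to 29.8 CPM (median 27.1) in negative and 31.3 to 46.8 CPM (median 42.7) in positive libraries. Every positive library was above every negative one, and the rise was 1.65-fold (log2 fold change 0.72 ± 0.12, adjusted p = 0.00118). Slc31a1, the copper importer of the cell surface, rose in all 6 mice from 120.0 ± 18.7 to 170.3 ± 27.2 CPM (SD, n = 6; adjusted p = 0.00201), with overlap. Slc11a2, which carries iron and other divalent metals out of endosomes, rose 1.31-fold (adjusted p = 0.0121). The zinc carriers Slc39a2 and Slc39a9 rose 2.19-fold and 1.25-fold. Slc39a2 had only 1.72 CPM in negative sorts and shares exon sequence with Mettl17 on the same strand, so its value is uncertain. It did not pass without any one of mice 1, 3 and 6 (adjusted p = 0.0506 to 0.0758), nor did Slc39a9 without any one of mice 1, 3, 4 and 6 (adjusted p = 0.0897 to 0.124). The 1 fall was in Slc30a4, which moves zinc out of the cytosol into vesicles. Slc30a4 had 7.82 to 30.4 CPM (median 9.81) in negative and 3.17 to 7.37 CPM (median 4.88) in positive libraries. The highest value, in the negative library of mouse 5, was further above the next than the other negative libraries lay apart, and the groups did not overlap. The level was 2.53-fold lower (adjusted p = 0.0014), and the log2 fold change of -1.34 became -1.09 without mouse 5. Of the 4 genes of zinc binding and response tested, the metallothionein gene Mt1 rose 1.27-fold (adjusted p = 0.032), but did not pass without any one of mice 2, 3, 5 and 6 (adjusted p = 0.0612 to 0.0999). Mt2 stood at 31.3 ± 17.5 and 36.8 ± 9.14 CPM and did not pass, nor did Mt3 or the zinc-sensing factor Mtf1. Slc30a1, the zinc exporter of the cell surface, stood at 4.32 ± 1.85 and 4.15 ± 1.26 CPM and did not pass.

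**Figure D3:**
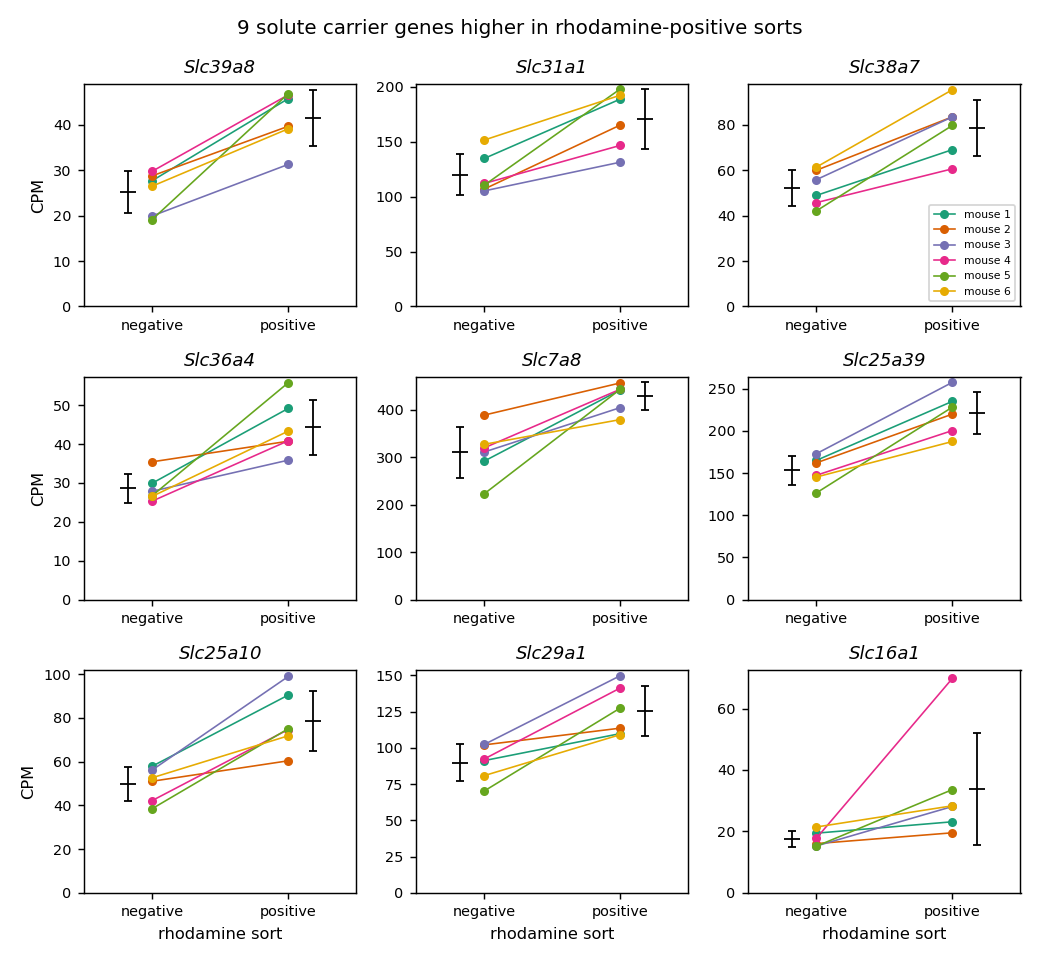
CPM (y axis) of 9 solute carrier genes in the rhodamine-negative and rhodamine-positive sort of each mouse, joined by a line, with black bars for the mean ± SD of 6 libraries beside them. All lines run upward, and in Slc16a1 the positive sort of mouse 4 lies apart at 69.9 CPM.

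Of 9 vitamin, folate and choline carriers, 2 rose and 2 fell (44.4%, against 26.2% of all genes). They include the largest relative fall of a called member whose mean log2 CPM reached 2. Slc52a3, a riboflavin transporter, had 8.10 to 40.9 CPM (median 14.8) in negative and 3.18 to 5.49 CPM (median 3.57) in positive libraries. The negative library of mouse 5 was far above the others, yet the lowest negative library was also above every positive one. The level was 4.04-fold lower (log2 fold change -2.01 ± 0.26, adjusted p = 0.000286), and -1.71 on the log2 scale without mouse 5. Its relative Slc52a2, also a riboflavin transporter, stood at 28.2 ± 2.85 and 34.0 ± 5.08 CPM and did not pass (adjusted p = 0.116). Slc44a2, a choline transporter-like protein, fell in every mouse from 196 ± 62.1 to 130.2 ± 27.6 CPM (adjusted p = 0.00747), although mouse 4 moved only from 133 to 130.2 CPM. Slc46a1, the proton-coupled folate carrier, and Slc23a2, the ascorbate carrier, rose 1.46-fold and 1.26-fold (adjusted p = 0.0368 and 0.0252). For Slc46a1 the negative library of mouse 5 was the lowest, at 28.3 CPM, and without mouse 5 its log2 fold change went from 0.55 to 0.34. It did not pass without any one of mice 1, 2 and 3 (adjusted p = 0.0562 to 0.0774), nor did Slc23a2 without mouse 2 (adjusted p = 0.063).

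Of 7 mono-, di- and tricarboxylate carriers tested, 2 rose and 0 fell, or 28.6% against 26.2% of all genes (0 fell also at an unadjusted p under 0.05, and 1 with DESeq2), and those that rose were both lactate and pyruvate carriers of the cell surface. Slc16a1 had 15.2 to 21.4 CPM (median 16.9) in negative and 19.5 to 69.9 CPM (median 28.2) in positive sorts. It was higher in each mouse, with mouse 4 going from 17.7 to 69.9 CPM, but the ranges overlapped. It rose 1.77-fold (adjusted p = 0.0123), and without mouse 4 the log2 fold change went from 0.82 to 0.59. Slc16a3, the more abundant per kilobase of exon (30.6 against 5.79 CPM per kilobase), rose from 144 ± 24.9 to 181 ± 14.1 CPM (adjusted p = 0.0142). Its call was lost in the fit with no mouse block (adjusted p = 0.0674) and with library size alone (adjusted p = 0.144). Bsg, which encodes basigin, the chaperone that brings these carriers to the surface, rose from 490.1 ± 87.6 to 716 ± 57.6 CPM (adjusted p = 0.0014). Emb, the related chaperone embigin, was 3.95-fold lower (adjusted p = 4.15e-06). Mpc1 and Mpc2, the subunits of the mitochondrial pyruvate carrier, had folds of 0.999 and 1.09 and did not pass.

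Among sugar and polyol carriers, 3 of 16 rose and 2 fell (31.2%, against 26.2% of all genes), with a median of 0.20. With library size alone 0 rose and 2 fell. Slc2a8, an intracellular hexose carrier, and Slc45a4 rose 1.33-fold and 1.34-fold. Slc2a8 did not pass without any one of mice 1, 2, 3, 4 and 5 (adjusted p = 0.0761 to 0.102), nor Slc45a4 without mouse 1 (adjusted p = 0.0667). Slc5a3, the sodium-coupled inositol carrier, and Slc37a1, which exchanges glucose-6-phosphate for phosphate, fell 1.57-fold and 1.80-fold. Slc5a3 did not pass without any one of mice 1, 2, 3 and 5 (adjusted p = 0.0716 to 0.139), nor Slc37a1 without any one of mice 1, 2, 3 and 5 (adjusted p = 0.0796 to 0.121). Slc5a3 shares exon sequence with Mrps6 on the same strand. Slc5a10, a carrier of mannose and fructose, rose 2.39-fold from 0.558 to 1.43 CPM, and was named after its values were seen. It entered the test mainly through its positive libraries, so its direction was largely fixed in advance and the size of its rise is uncertain. It did not pass without any one of mice 1, 2, 5 and 6 (adjusted p = 0.0764 to 0.126), was left out by the filter without mouse 4, and among the other settings passed only without mouse 3 and with limma-voom (DESeq2 adjusted p = 0.0659). The abundant Slc2a6 stood at 135 ± 26.2 and 154 ± 17.9 CPM and did not pass (adjusted p = 0.127), nor did Slc37a2 at 121 ± 20.4 and 146 ± 16.8 CPM (adjusted p = 0.0618).

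Carriers for nucleosides and for glycosylation were few. Of 5 nucleoside and nucleobase carriers, 2 rose (40%, against 26.2% of all genes called and 13.0% higher). Slc29a1, the main facilitative nucleoside carrier of the cell surface, had 70.2 to 102 CPM in negative and 109 to 149.8 CPM in positive libraries without overlap (1.39-fold, adjusted p = 0.00481). Slc43a3, a purine nucleobase carrier, rose 1.51-fold in all 6 mice (adjusted p = 0.00655). Of 4 nucleotide sugar and acetyl-CoA carriers, 2 rose (50%, of few genes). These were Slc35a2, which brings UDP-galactose into the Golgi, 1.30-fold, and Slc33a1, which brings acetyl-CoA into the endoplasmic reticulum, 1.28-fold. Slc35a2 did not pass without mouse 3 (adjusted p = 0.0585), nor Slc33a1 without any one of mice 1, 2, 3, 4 and 6 (adjusted p = 0.0514 to 0.139). Slc35a4, assigned to no substrate here, rose 1.26-fold and did not pass without any one of mice 1, 3, 4 and 5 (adjusted p = 0.0572 to 0.0903). Of 22 tested carriers of other name forms, 5 rose and 1 fell, or 27.3%. Those that rose were Slc35b1, Slc35b4, Slc35c2, Slc35f6 and Slc18b1, by 0.36 to 0.76 on the log2 scale. Slc35b4 did not pass without any one of mice 1, 3, 4, 5 and 6 (adjusted p = 0.079 to 0.113), nor Slc35f6 without mouse 3 (adjusted p = 0.0514), nor Slc18b1 without any one of mice 2, 3 and 6 (adjusted p = 0.0511 to 0.0584). Slco3a1, an organic anion carrier, fell from 7.71 ± 3.72 to 2.02 ± 1.22 CPM. Of 18 transport partners and atypical carriers, 4 rose (Mfsd1, Bsg, Steap3 and Npc1) and 2 fell (Emb and Spns3), or 33.3%.

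Of 23 inorganic ion carriers, 1 rose and 3 fell (17.4%, against 26.2% of all genes). Slc12a7, a potassium-chloride cotransporter, rose 1.39-fold in all 6 mice (adjusted p = 0.00336). Slc4a7, a sodium-bicarbonate cotransporter, and Slc26a2, a sulfate carrier, had log2 fold changes of -0.40 and -0.27, and Slc26a2 did not pass without 1 mouse, whichever it was (adjusted p = 0.0516 to 0.13). Slc4a11 fell most in this class, with 1.22 to 16.0 CPM (median 3.02) in negative and 0 to 1.46 CPM (median 0.750) in positive libraries. Mouse 5 had the highest value, mouse 4 moved only from 1.22 to 0.957 CPM, and the groups overlapped. The positive library of mouse 1 had no count, which allows up to 0.200 CPM. The log2 fold change of Slc4a11 was -2.74 ± 0.56 (adjusted p = 0.00455), and -2.55 without mouse 5. Slc4a11 entered the test through its negative libraries, with positive ones near the limit of the filter on low counts. Its direction was therefore largely fixed in advance, and the size of its fall is uncertain.

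The largest relative falls were in members with few counts, named after their values were seen. Slc14a1, a urea transporter, had 1.85 to 10.8 CPM (median 3.89) in negative and 0 to 1.11 CPM (median 0.723) in positive libraries. The groups did not overlap, mouse 5 was again the highest, and 1 positive library, that of mouse 6, had no count, which allows a level of up to 0.238 CPM (3 counts, counting error only). The log2 fold change was -2.84 ± 0.45 (adjusted p = 0.00106). Slc14a1 entered the test through its negative libraries, with positive ones near the limit of the filter on low counts. Its direction was therefore largely fixed in advance, and the size of its fall is uncertain. Slc36a3os, an antisense transcript of an amino acid carrier gene and no transporter, was 4.97-fold lower, also without overlap (adjusted p = 0.00118). Slc18a2, the vesicular monoamine transporter, had 2.74 to 15.3 CPM (median 5.01) in negative and 0.736 to 2.00 CPM (median 1.75) in positive libraries. Its level was 3.74-fold lower without overlap (adjusted p = 0.00187). The highest negative levels of Slc18a2 were in mice 5 and 3. The same mice led the summed basophil and mast cell markers, at 413 and 259.6 CPM. All 3 of those markers that could be tested (of 6) fell, with Mcpt8 at -6.12, Hdc at -4.81 and Gata2 at -4.40. They entered the test mainly through the negative group, and Mcpt8 and Gata2 were left out by the filter without mouse 5. The part of such cells in the fall of Slc18a2 was not tested. Slc22a15, an organic ion carrier, and Slc15a2, a peptide carrier, fell 3.55-fold and 2.18-fold and were higher in 1 mouse each. Slc22a15 did not pass without any one of mice 3, 4 and 5 (adjusted p = 0.051 to 0.0673), nor Slc15a2 without any one of mice 1, 2, 3, 5 and 6 (adjusted p = 0.0567 to 0.127).

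Of 7 carriers of neurotransmitters, taurine, creatine and vesicular cargo tested, 1 rose and 2 fell (42.9%, against 26.2% of all genes), with a median of -0.03. Slc18a2, described above, is 1 of the 2 that fell. Of 7 glioma and oligodendrocyte lineage markers tested (of 8), 4 fell (57.1%, against 13.2% of all genes). Among these, Olig1 did not pass without any one of mice 2, 4 and 6 (adjusted p = 0.0751 to 0.0847). Nor did Sox10 without either of mice 2 and 6 (adjusted p = 0.0526 to 0.0629). The summed level of all 8 was 95.2 to 148 CPM in negative and 43.4 to 132 CPM in positive libraries. Slc1a2, the main glutamate carrier of astrocytes, stood at 1.64 ± 0.701 and 0.904 ± 0.554 CPM, and Slc1a3, its relative in glia, at 53.4 ± 20.0 and 45.7 ± 11.7 CPM, and neither passed. None of the 3 astrocyte and 2 neuron markers tested (of 5 each) passed. Slc6a8, the creatine carrier, rose 1.54-fold in 5 of 6 mice and did not pass without any one of mice 1, 2, 3, 4 and 5 (adjusted p = 0.0576 to 0.133). The taurine carrier Slc6a6 was the most abundant of this class by CPM, at 222 ± 29.6 and 218 ± 27.4 CPM, and did not pass (adjusted p = 0.852).

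**Figure D4:**
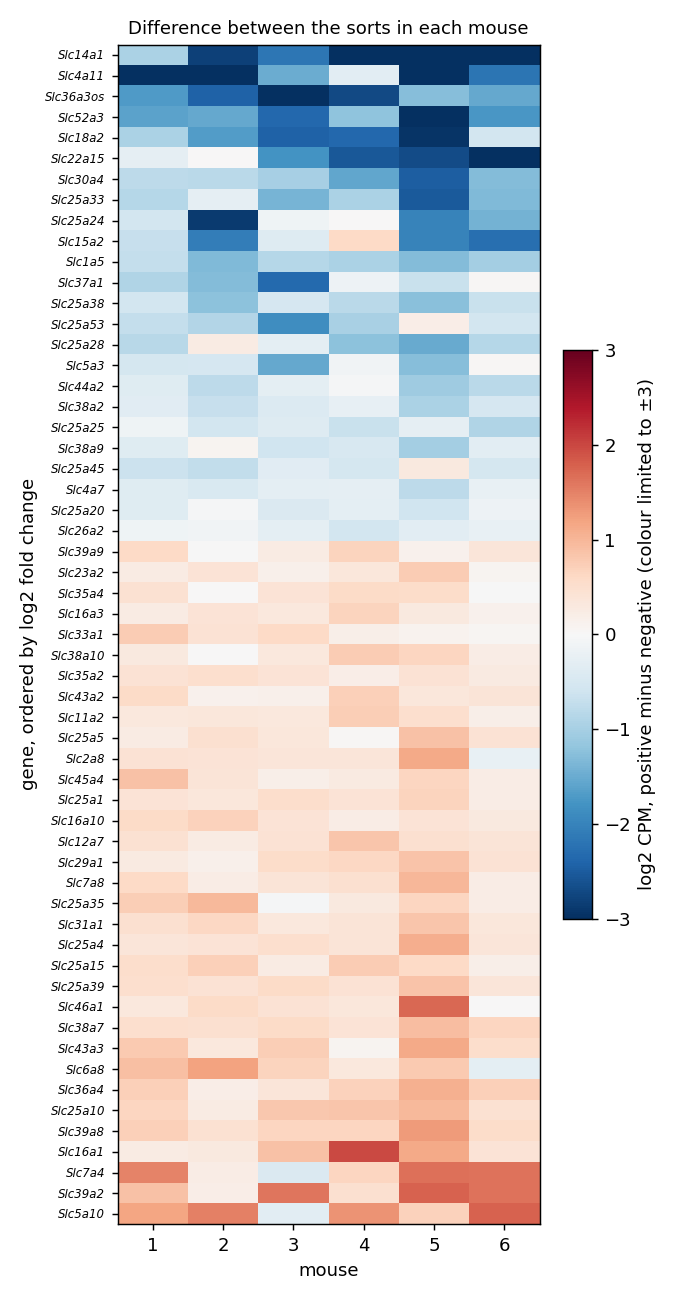
Difference in log2 CPM between the positive and the negative sort (colour, limited to ±3) for 57 of the 58 members that passed the test (from top to bottom, ordered by log2 fold change) in each of the 6 mice (left to right). The sign is shared by all mice in 41 of the genes shown, and the deepest blue is in genes with few counts, such as Slc14a1 and Slc4a11.

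Of 4 fatty acid and bile acid carriers tested, 0 passed with edgeR, 1 was higher and 1 lower at an unadjusted p under 0.05, and DESeq2 called 1 lower. Neither of the 2 phosphate carriers passed, with 0 at an unadjusted p under 0.05 and 0 with DESeq2. Slc27a1, a fatty acid carrier and acyl-CoA synthetase, stood at 39.3 ± 5.65 and 46.6 ± 5.31 CPM (adjusted p = 0.115), and the phosphate carrier Slc20a1 at 37.7 ± 6.19 and 31.0 ± 5.17 CPM (adjusted p = 0.146). Differences between the sexes in the response were tested as an interaction of sort and sex with edgeR, with 4 male and 2 female mice. The females were mice 5 and 6, and the negative library of mouse 5 stood apart. With so few females, sex and the traits of mouse 5 cannot be told apart here. No member passed (lowest adjusted p = 0.562), and 16 of 195 had an unadjusted p under 0.05 (8.21%, against 7.73% of all genes tested).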

How the data were processed

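Polyadenylated RNA of 12 libraries, 6 rhodamine-negative and 6 rhodamine-positive sorts of the same 6 mice, was sequenced. The authors deposited raw read counts per gene, which were analysed here, and a table of log2 values for 10605 genes, which holds 160 of the members. Processing used build mm10 and bcl2fastq 2.17, limma, edgeR, cutadapt, featureCounts 1.4.4 and HISAT2 2.1.0, which the submitters' processing notes list without roles or order. The strand setting of the counting is not given in the sources used here. The deposited log2 values equal log2 CPM with 0.5 added to each count, plus a constant per library of -0.107 to 0.175.

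Counts were tested with edgeR 4.0.16 (R 4.3.3) by the quasi-likelihood test with TMM scaling and the mouse as a block. A filter on low counts came first and left 15014 genes holding 99.8% of all counts. It asked for a level equal to about 10 counts in at least 6 libraries, the size of a group, and 15 counts in total. P-values were adjusted by Benjamini-Hochberg over all of these, with a threshold of 0.05. The error of a log2 fold change is its standard error from the same test. CPM values are counts scaled to a common library total with TMM. Gene positions and exon lengths come from GENCODE vM21. Pairs were taken from the series design, where the 2 sorts are described as paired. The deviations of the sorts of 1 mouse from their group means correlated at 0.0775 (mouse 4) to 0.450 (mouse 6), and in every mouse but mouse 4 more than with any other mouse. The replicates are separate mice, and no 2 libraries of a group agreed within sampling noise. On simulated counts for the 15014 genes, the test called 91.0% of the 100 genes given a log2 change of 1 and 29.0% of the 100 given one of 0.5, and 11 of 131 calls were false. The changed genes were drawn only from those with higher mean counts, so members with few counts are not covered. Far fewer genes were changed there than were called in the data. The adjustment is stricter in that case, so these shares do not carry over to the data.

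The members, their substrate classes and the context lists were chosen with earlier results of these data known. Genes named in the text are, in each class, up to 4 per direction with the smallest p among those called whose mean log2 CPM reached 2, the 8 with the largest change in each direction, and the 10 most abundant per kilobase. Other named members were picked with their values in view, and the context lists are described by counts with a few of their genes. Some genes that passed are not reported here. DESeq2 1.42.0, limma 3.58.1 (voom, and on the log2 values), library size alone, no filter, no block, male mice alone and leaving out each mouse were tried as alternatives. Exons of Slc7a7, Slc25a11, Slc39a9 and Slc5a10 overlap those of Oxa1l, Rnf167, Erh and Fam83g on the other strand, and those of Slc43a2, Slc38a10, Slc38a9, Slc25a10, Slc25a33, Slc18a2, Slc29a1, Slc33a1, Slc35a4, Slc37a1, Slc30a4 and Slc11a2 overlap predicted or unnamed genes there, so that their values are uncertain where reads were counted without strand.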

Additional observations from a re-analysis of the deposited data

Results flagged for a closer look

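Among 128 groups of 6 libraries checked (64 members in each sort), 13 held 1 library apart from the other 5 by Dixon's test, where chance gives about 1 in 20. In 9 of the 13 it was the rhodamine-negative library of mouse 5. That library was the highest for Slc52a3 (40.9 CPM, the others 8.10 to 16.9), Slc30a4 (30.4, the others 7.82 to 14.9), Slc25a24 (20.7, the others 4.47 to 9.51), Slc5a3 (24.2, the others 5.98 to 12.6), Slc4a7 (49.8, the others 30.7 to 37.8), Slc4a11 (16.0, the others 1.22 to 5.55), Slc18a2 (15.3, the others 2.74 to 7.23) and Slc14a1 (10.8 CPM, the others 1.85 to 4.98). It was the lowest for Slc2a8, at 23.4 CPM against 36.5 to 42.4 CPM. The negative library of mouse 4 was the lowest for Slc35a4, at 102 CPM against 129 to 141 CPM, and the highest for Slc5a10, at 1.22 CPM against 0.298 to 0.588 CPM. In positive sorts, Slc16a1 was highest in mouse 4, at 69.9 CPM against 19.5 to 33.6 CPM. Slc52a3 was highest in mouse 2, at 5.49 CPM against 3.18 to 3.89 CPM.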

How the results depend on the processing

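No member that passed changed sign under any alternative run. Passing in every setting run were 11 of 33 rises (Slc7a8, Slc16a1, Slc25a1, Slc25a10, Slc25a39, Slc25a4, Slc29a1, Slc31a1, Slc36a4, Slc38a7 and Slc39a8) and 8 of 25 falls (Slc14a1, Slc18a2, Slc1a5, Slc25a38, Slc30a4, Slc36a3os, Slc38a2 and Slc52a3), of which Slc14a1 and Slc18a2 are not in the log2 table. Since Slc14a1 entered the test through its negative libraries, its direction was largely fixed in advance in these settings. Without the replicate block, which ignores the pairing by mouse, 17 members rose and 14 fell, and 1270 of all genes rose (1398 fell). The 27 calls lost there included those of Slc25a33, Slc25a25, Slc25a5, Slc25a15, Slc25a45, Slc25a24, Slc25a53, Slc16a3, Slc6a8, Slc35a2, Slc33a1, Slc22a15, Slc35a4, Slc15a2, Slc12a7, Slc26a2, Slc45a4, Slc5a3, Slc5a10, Slc2a8, Slc37a1, Slc23a2, Slc46a1, Slc11a2, Slc39a2 and Slc39a9 (adjusted p = 0.0505 to 0.271). With library size alone, 14 members rose and 40 fell, and 852 of all genes rose and 3142 fell. The 19 calls lost there, all rises, were those of Slc43a2, Slc16a10, Slc38a10, Slc7a4, Slc25a5, Slc25a15, Slc25a35, Slc16a3, Slc6a8, Slc35a2, Slc33a1, Slc35a4, Slc45a4, Slc5a10, Slc2a8, Slc23a2, Slc46a1, Slc11a2 and Slc39a9 (adjusted p = 0.0736 to 0.307). In male mice alone, which leaves out mice 5 and 6, 20 members rose and 14 fell, and 1005 of all genes rose and 1222 fell. The 26 calls lost there were those of Slc43a2, Slc38a10, Slc38a9, Slc7a4, Slc25a5, Slc25a15, Slc25a28, Slc25a24, Slc25a20, Slc25a35, Slc43a3, Slc35a2, Slc22a15, Slc35a4, Slc15a2, Slc4a11, Slc4a7, Slc26a2, Slc45a4, Slc5a3, Slc5a10, Slc37a1, Slc44a2, Slc23a2, Slc39a2 and Slc39a9 (adjusted p = 0.0506 to 0.342). Leaving out each mouse in turn gave 22 to 28 rises and 16 to 23 falls among members, and 1257 to 1780 rises and 1421 to 1820 falls among all genes. DESeq2, limma-voom and the log2 table gave 34 and 31, 34 and 25, and 25 and 21 member rises and falls, and no filter on low counts gave 33 and 36. The estimate for Slc3a2, which did not pass, was -0.0906 with library size alone, -0.0403 in male mice alone and between -0.0242 (without mouse 5) and 0.119 (without mouse 1) with 1 mouse left out, and that for Slc25a11 was -0.0794 with library size alone. Slc9a3r1 passed without mouse 2 (0.33, adjusted p = 0.0291). Over the alternatives, amino acid carriers had 3 to 7 rises and 2 to 7 falls, mitochondrial carriers 4 to 7 and 3 to 12, metal carriers 2 to 7 and 1 to 3, inorganic ion carriers 0 to 1 and 0 to 5, and sugar carriers 0 to 3 and 0 to 2. The sort by sex interaction gave 0 members with edgeR also without the filter. The cause of these changes was not tested. On the simulated counts, where far fewer genes were changed than were called here, 29.0% of changes of 0.5 on the log2 scale were found. Those changes were given only to genes with higher mean counts. The share found in these data is not known, and a member that did not pass may still differ.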
